A study of Homo with 2 samples.

Results

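The 40 S phase and DNA replication genes described here were chosen by symbol from a list of genes that cells in S phase are known to use. They were looked up in the count tables of 2 single-cell libraries, and all 40 were found, among 25556 genes present in both tables and 28363 present in either. Both libraries came from blastoids, embryo-like spheres, made from KhES1, 1 established human embryonic stem cell line, with no genetic change named. The cells were aggregated in microwells for 24 h and then kept in a hydrogel to day 4, throughout in DMEM with 10% FBS and 10 µM Y27632, an inhibitor of the kinase ROCK. Both libraries belong to 1 group, so the genes were compared between cells inside each library, and all cells shared line, medium, Y27632 and day.

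Cells were placed in 2 groups by POU5F1, a transcription factor of pluripotent cells. POU5F1 cells had POU5F1 at 200 CPM or more, and other cells had less. CPM is the number of UMIs, tags that mark 1 captured RNA each, per 1000000 UMIs of the same cell or cells. A barcode was kept when 1000 genes or more were detected in it and mitochondrial UMIs were no more than 20% of its total, which left 937 of 1988 in library 1 and 1519 of 2601 in library 2. POU5F1 cells were 64 in library 1 and 134 in library 2, beside 873 and 1385 other cells. The kept cells held 37467640 and 43953088 UMIs, and the median per cell was 36337 in POU5F1 cells and 35037 in other cells of library 1, and 19257 and 25157 in library 2. Nothing in the labels states that separate cultures gave the 2 libraries, so the p-values may measure technical spread only. The median mitochondrial share was 5.15% and 4.42% in POU5F1 cells and 6.04% and 5.51% in other cells. Of all barcodes, 1 was in both tables, and no barcode was kept in both.

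DNA is copied once in each cell cycle. In G1 the MCM helicase is loaded at origins with the help of CDC6, and in S phase it is joined by CDC45 and the GINS complex, polymerases follow with the sliding clamp PCNA, and ribonucleotide reductase and thymidylate synthase supply nucleotides. Many of these genes are transcribed by E2F factors around the entry into S phase, while a later set, used here as a measure of G2 and mitosis, rises before division. Human pluripotent stem cells are known for a short G1 phase and a large share of cells in S phase.

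The POU5F1 group held markers of more than 1 cell type. POU5F1 itself, which set the groups, stood at 677 ± 55.5 CPM (SD, n = 2 libraries) against 34.5 ± 0.75. SOX2, a further pluripotency factor, was at 96.6 ± 11.7 against 2.54 ± 0.33. TBXT, the defining gene of the primitive streak, was at 63.3 ± 0.92 against 0.94 ± 0.35, and 18 and 44 POU5F1 cells held a TBXT UMI, against 11 and 10 other cells. The 6 streak and mesoderm markers summed to 436 and 443 CPM in POU5F1 cells and to 13.7 and 7.83 in other cells. The 12 trophectoderm or amnion markers summed to 1253 and 1230 in POU5F1 cells and to 3274 and 3411 in other cells. GATA3, one of them, was at 200 CPM or more in 9 and 18 POU5F1 cells. The 10 pluripotency markers summed to 2519 and 2591 against 651 and 632, the 4 endoderm markers to 30.2 and 25.7 against 1.67 and 1.44, and the 4 mesenchyme markers to 40.2 and 57.1 against 422 and 465. The part of these markers' cells in the results below was tested only where cells with TBXT or GATA3 were left out. The cut is a range: 14 and 39 POU5F1 cells passed it on 1 UMI, 12 and 37 cells lay between 150 and 200 CPM, and 4 and 11 between 200 and 250.

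Across all kept cells the 40 genes made up 0.213% and 0.222% of UMIs, or 79845 and 97480 molecules. NASP, a histone chaperone that holds histone H3 and H4 for deposition on new DNA, was the most abundant at 348 ± 25.1 CPM (SD, n = 2) and gave 15.5% and 16.5% of all molecules of the 40. POLA1, the catalytic subunit of the polymerase that primes synthesis, stood at 166 ± 0.81, HELLS, a chromatin remodeler, at 124 ± 3.5, and BRIP1, a helicase of DNA repair, at 106 ± 0.98. These were the 4 genes above 100 CPM. CCNE2, a cyclin that drives entry into S phase, was lowest at 5.51 ± 0.17. Levels agreed closely between libraries (Pearson r of log10 levels 0.998 over the 40 genes, which are not replicates). The chemistry counts 3′ ends and the levels are not divided by gene length. POLA1 and BRIP1 are long, at 303 and 184 kb, while NASP spans 34.9 kb. The part of gene length in this order of levels was not tested.

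Most of the 40 genes were higher in POU5F1 cells. Summed, they stood at 3261 and 3220 CPM in POU5F1 cells of libraries 1 and 2, and at 2040 and 2089 in other cells. Without NASP the sums were 2648 and 2557 against 1732 and 1761. Both POU5F1 sums were therefore above both other sums, with or without the most abundant gene. In edgeR's quasi-likelihood test on UMIs summed per library and group, with library as a block and Benjamini-Hochberg adjustment over 19076 genes, 30 of the 40 rose in POU5F1 cells, 1 fell and 9 did not pass an adjusted p of 0.05. The groups differed broadly: 48.1% of all genes tested were called, 24.1% higher and 24% lower, so a call on a single gene is common here. The median log2 fold change was 0.63 over the 40 genes and -0.04 over all genes tested. For 36 of the 40 both libraries of POU5F1 cells were above both of other cells, an order met by 38.3% of all genes tested.

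**Figure D1:**
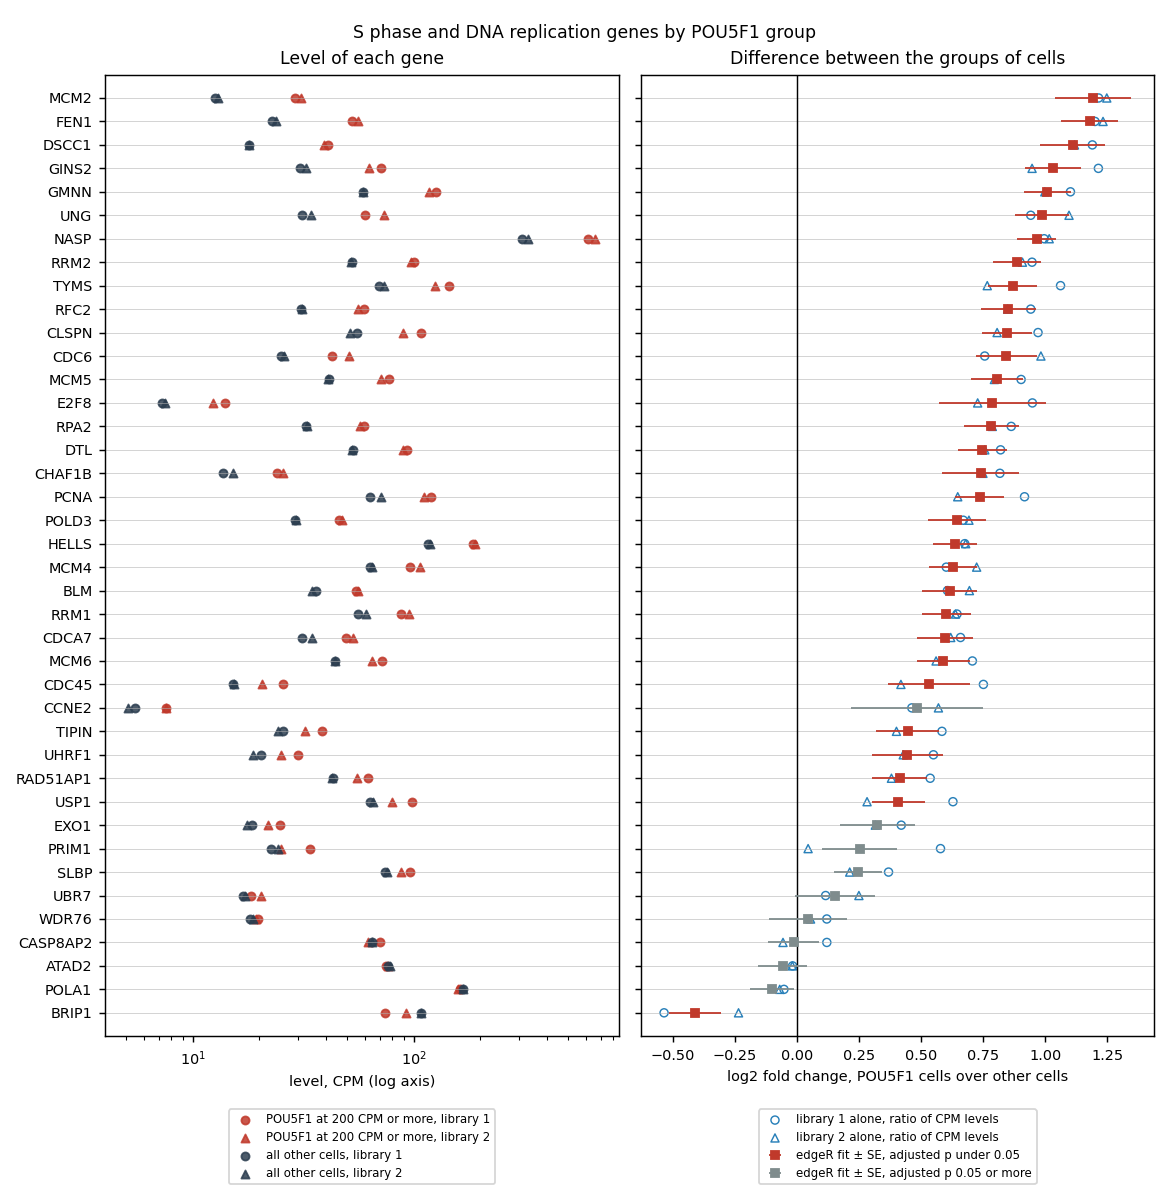
Left, level of each of the 40 genes in CPM on a log axis, in POU5F1 cells (red) and other cells (dark) of library 1 (circles) and library 2 (triangles). Right, log2 fold change of POU5F1 cells over other cells, as the edgeR estimate ± SE (squares, red where the adjusted p was under 0.05) and as the ratio within each library (open symbols); most genes lie to the right of 0, and BRIP1, at the bottom, lies to the left.

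The helicase genes rose together, 6 of 6, with a median log2 fold change of 0.72. MCM2, a subunit of the MCM ring (chromosome 3, 127598411 to 127622436 in GRCh38, RefSeq annotation), was at 29.1 and 30.7 CPM in POU5F1 cells and 12.5 and 12.9 in other cells. Its log2 fold change of 1.19 (SE 0.15, edgeR adjusted p = 1.2e-05) was the largest of the 40. With each cell drawn down to 5000 UMIs at random, MCM2 had 0.90 and did not pass (edgeR adjusted p = 0.191). FEN1 and GINS2 were larger there, at 1.60 and 1.38. MCM5 stood at 76.9 and 71.2 against 41.1 and 41.1, MCM4 at 95.9 and 106 against 63.3 and 64.3, and MCM6 at 71.8 and 64.6 against 44.1 and 43.9. For each of these ring subunits the libraries were closer to each other than the groups were. GINS2, a subunit of the GINS complex that activates the ring, was at 71.1 and 62.4 against 30.7 and 32.4, with a log2 fold change of 1.03 (SE 0.11). CDC45, which binds the ring with GINS, rose least, at 25.5 and 20.5 against 15.2 and 15.4 (log2 fold change 0.53, SE 0.16, edgeR adjusted p = 0.0147). It did not pass DESeq2's Wald test on the same sums (adjusted p = 0.201).

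The 3 genes of origin licensing and its control also rose, with a median log2 fold change of 0.84. GMNN encodes geminin, which blocks licensing after S phase has begun, and stood at 126 and 118 CPM in POU5F1 cells against 59.0 and 58.9 in other cells. CDC6, the loader, was at 42.4 and 51.1 against 25.1 and 25.9. DTL, part of the ubiquitin ligase that destroys the licensing factor CDT1 in S phase, was at 93.4 and 89.0 against 52.9 and 52.7. The groups did not overlap for any of the 3. The estimated log2 fold changes were 1.01 (SE 0.09) for GMNN, 0.84 (SE 0.12) for CDC6 and 0.75 (SE 0.10) for DTL.

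At the fork itself, 5 of 7 genes rose and POLA1 and PRIM1 did not pass the test. FEN1, the nuclease that trims Okazaki fragments (chromosome 11, 61792911 to 61797238), was at 52.4 and 55.9 CPM in POU5F1 cells and 22.8 and 23.8 in other cells, a log2 fold change of 1.18 (SE 0.12, edgeR adjusted p = 8.23e-07). PCNA, the clamp, was at 120 and 111 against 63.6 and 70.9. RFC2, of the complex that loads PCNA, was at 59.3 and 56.1 against 30.9 and 31.2. RPA2, of the protein that covers single-stranded DNA, and POLD3, a subunit of polymerase delta, had log2 fold changes of 0.78 (SE 0.11) and 0.64 (SE 0.12).

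POLA1 and PRIM1 encode subunits of the enzyme that starts each new strand. POLA1 (chromosome X, 24693918 to 24996986) was at 161 and 158 CPM in POU5F1 cells and 167 and 166 in other cells, a log2 fold change of -0.10 (SE 0.09, edgeR adjusted p = 0.37). PRIM1, its primase subunit, was at 33.8 and 24.9 against 22.6 and 24.2. In library 1 its log2 ratio was 0.58 and in library 2 it was 0.04, and the edgeR estimate was 0.25 (SE 0.15, adjusted p = 0.191). POLA1 thus stood slightly lower in the POU5F1 cells of both libraries, and PRIM1 was higher by a margin seen mainly in library 1.

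All 3 genes of nucleotide supply rose. TYMS, thymidylate synthase (chromosome 18, 657653 to 673578), was at 145 and 125 CPM in POU5F1 cells against 69.4 and 73.6 in other cells, a log2 fold change of 0.87 (SE 0.10). RRM2, the small subunit of ribonucleotide reductase, was at 101 and 97.0 against 52.2 and 51.7, a log2 fold change of 0.89 (SE 0.10). RRM1, the large subunit, was at 87.7 and 94.6 against 56.1 and 60.8, with 0.60 (SE 0.10). CLSPN and TIPIN, which stabilise stalled forks and pass their signal to the checkpoint kinase, rose by 0.84 (SE 0.10) and 0.44 (SE 0.13) on the log2 scale. CLSPN stood at 108 and 89.6 against 55.0 and 51.3, so its 2 POU5F1 values lay further apart than those of most genes here. TYMS overlaps ENOSF1 and TYMSOS in the annotation, and CLSPN overlaps an antisense gene. Whether the counting used strand was not stated in the labels or headers.

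Among 7 genes of DNA repair, 4 rose, 1 fell and 2, EXO1 and WDR76, did not pass. UNG, the glycosylase that removes uracil from DNA, was at 60.0 and 73.0 CPM in POU5F1 cells against 31.3 and 34.2 in other cells, a log2 fold change of 0.99 (SE 0.11). BLM, a helicase that resolves joined DNA, was at 54.6 and 55.7 against 35.9 and 34.4. RAD51AP1 and USP1, which removes ubiquitin from PCNA and FANCD2, both rose by 0.41 on the log2 scale (SE 0.11 each). EXO1, a nuclease of mismatch repair, stood at 24.8 and 21.9 against 18.5 and 17.6 (log2 fold change 0.32, SE 0.15, edgeR adjusted p = 0.0955). WDR76 was at 19.8 and 19.4 against 18.2 and 18.6, the smaller of these differences.

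BRIP1 was the only one of the 40 called lower. It lies at chromosome 17, 61679139 to 61863528, and encodes a helicase that partners BRCA1. Its level was 74.0 and 91.8 CPM in POU5F1 cells and 107 and 108 in other cells. The log2 fold change was -0.41 (SE 0.10, edgeR adjusted p = 0.00417). Both POU5F1 values were below both other values, though the 2 POU5F1 values differed from each other by more than the 2 others did. DESeq2's Wald test on the same sums gave BRIP1 an adjusted p of 0.0738. Of the 30 higher genes it called 23, where 14.3% of all genes were called higher.

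Of 10 chromatin genes, 6 rose. NASP (chromosome 1, 45584041 to 45618893) was at 614 and 663 CPM in POU5F1 cells and 308 and 328 in other cells, a log2 fold change of 0.97 (SE 0.08), with the smallest edgeR adjusted p of the 40, 1.04e-07. DSCC1, of the clamp loader that helps hold sister chromatids together, was at 41.0 and 39.1 against 18.0 and 18.0, a log2 fold change of 1.11 (SE 0.13). CHAF1B, a subunit of the assembly factor that puts histones on new DNA, was at 24.1 and 25.5 against 13.7 and 15.2. These 3 chromatin genes stood clearly apart between the groups in both libraries. HELLS rose by 0.64 (SE 0.09) on the log2 scale, CDCA7, which recruits HELLS, by 0.60 (SE 0.11), and UHRF1, which brings DNA methylation to the new strand, by 0.44 (SE 0.14).

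The other 4 chromatin genes did not pass. ATAD2, a bromodomain ATPase, was at 75.1 and 76.6 CPM in POU5F1 cells and 76.1 and 77.7 in other cells. CASP8AP2, needed for histone gene expression, was at 70.1 and 62.2 against 64.5 and 64.8. In both genes the groups overlapped. SLBP, which binds the stem-loop of histone mRNA, was at 95.9 and 87.8 against 74.3 and 75.8, just short of the threshold (log2 fold change 0.25, SE 0.10, edgeR adjusted p = 0.0508). UBR7, a ubiquitin ligase, was at 18.3 and 20.3 against 16.9 and 17.1 (log2 fold change 0.15, SE 0.16, edgeR adjusted p = 0.47).

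Of the remaining cell cycle control genes, E2F8, a repressor of E2F targets, rose from 7.27 and 7.47 CPM in other cells to 14.0 and 12.4 in POU5F1 cells (log2 fold change 0.79, SE 0.22). CCNE2, at 7.54 and 7.58 against 5.48 and 5.11, did not pass (edgeR adjusted p = 0.15). In both libraries its POU5F1 value was higher. On simulated counts with the depth of these sums and 1 common spread, 53 of 100 genes set to change 1.5-fold were called, as were 97 of 100 set to change 2-fold. All genes set to change were at 10 CPM or more, so these counts do not cover CCNE2. They were also few among 18843 genes tested, whereas 48.1% of genes were called in the data, so the counts are a rough guide only. A gene that did not pass may still differ.

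Genes outside the 40 moved in the same contrast, where 24.1% of all genes tested were called higher and 24% lower. Of 42 other replication genes, 30 rose and 1 fell, with a median log2 fold change of 0.56. ORC1, of the origin recognition complex, was at 27.3 and 25.5 CPM in POU5F1 cells against 13.2 and 11.3 in other cells, and the thymidine kinase TK1 at 42.0 and 40.7 against 19.5 and 21.2. WDHD1, which links helicase and polymerase, had a log2 fold change of 1.02, and POLD2, of polymerase delta, 0.97. TOPBP1, named because it was the 1 that fell, had a log2 fold change of -0.39. Of 22 G1/S regulators, 13 rose and 4 fell: CCND1, a D-type cyclin, had the largest rise at 140 and 134 against 2.51 and 2.59, while CDK6, RB1, RBL2 and CCND3 fell, with CDK6 at 115 and 101 against 301 and 304. E2F1, an activator of S phase genes, was at 22.3 and 17.2 against 9.46 and 8.50, and E2F5 had a log2 fold change of 0.79. Among 5 tested genes of 7 inhibitors of cyclin-dependent kinases, CDKN1C fell, at 48.5 and 26.5 against 163 and 124, CDKN1B did not pass (log2 fold change -0.47, edgeR adjusted p = 0.0542), and CDKN1A rose, at 9.70 and 9.58 against 2.91 and 2.82. The 4 of 22 G1/S regulators that fell, and the 1 of 5 inhibitors called each way, were not above the shares of all genes. CDKN1A, RB1, RBL2 and CCND3 were named after their values were seen.

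Many genes of G2 and mitosis rose in POU5F1 cells as well. Of 54 such genes, 30 rose and 2 fell with all cells, where 24.1% and 24% of all genes tested did. Without TBXT cells 10 of the 54 were higher and 6 lower, where 14.3% and 14.8% of all genes tested were. With all cells the sums of the 54 were 5434 and 5561 CPM in POU5F1 cells against 4068 and 4071 in other cells. PIMREG, a mitotic regulator, had the largest change at a log2 fold change of 2.29, and CKS1B, a partner of cyclin-dependent kinases, stood at 191 and 198 against 76.5 and 80.5. CENPE and CDCA2 followed with 1.07 and 0.97. GAS2L3 and RANGAP1 were the 2 that fell, named after their values were seen. To compare cells of like G2/M content, cells with at least 5000 UMIs were divided within each library into 4 classes of equal size, Q1 (lowest) to Q4 (highest), by the share of their UMIs in the 54 genes, and this G2/M class was added to the fit as a term. Of the 40 S phase genes, 19 then remained higher, where 24.4% of the 14072 genes tested were called higher, and 3 were lower, where 25.7% were (50.1% in either direction). The median log2 fold change was 0.35. The 3 lower genes were BRIP1 (-0.80), POLA1 (-0.38) and ATAD2 (-0.33). This fit used a sum per library, group and class, so sums of the same library and group counted as separate values. The smallest sum, of POU5F1 cells in Q2 of library 1, held 3 cells.

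The contrast was repeated without the POU5F1 cells that held TBXT, which left 46 and 90. In it 22 of the 40 genes were higher, 1 was lower and the median log2 fold change was 0.57, where 14.3% of 18700 genes tested were called higher and 29.1% in either direction. MCM2 then had a log2 fold change of 1.31, GMNN of 0.70 and E2F8 of 0.34 (edgeR adjusted p = 0.513 for E2F8). Of the 54 G2/M genes, 10 were then higher and 6 lower, where 14.3% and 14.8% of all genes tested were, and their median log2 fold change was 0.01. With the TBXT cells 30 were higher and 2 lower, with a median of 0.34. Calls over all genes fell as well, from 9170 to 5448. All 18 and 44 TBXT cells had at least 5000 UMIs, against 27 of 46 and 42 of 90 POU5F1 cells without TBXT. Leaving out TBXT cells thus also changed the depth of the group, and the part of depth was not tested. Whether cell type or cell cycle position carried the difference was not tested beyond these values.

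Single cells were then compared at equal depth, after each cell was thinned to 5000 UMIs at random. This left 45 of 64 and 86 of 134 POU5F1 cells and 782 of 873 and 1052 of 1385 other cells. The median POU5F1 cell held 15 UMIs of the 40 genes in library 1 and 15.5 in library 2, and the median other cell held 7 and 8. The middle range, from the 25th to the 75th percentile, was 12 to 20 and 10 to 21 in POU5F1 cells and 4 to 14 and 4 to 15 in other cells. Before thinning, the same POU5F1 cells held a median of 185 and 156.5 such UMIs and other cells 48.5 and 43. The groups overlapped widely, since the highest cells held 36 and 38 in the POU5F1 group and 42 and 41 among the others. At least 10 UMIs were found in 80% and 77.9% of POU5F1 cells and in 39.1% and 41.8% of other cells. Cells are not replicates, and 2 libraries cannot give a permutation p under 0.05, so no test was made on these shares.

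**Figure D2:**
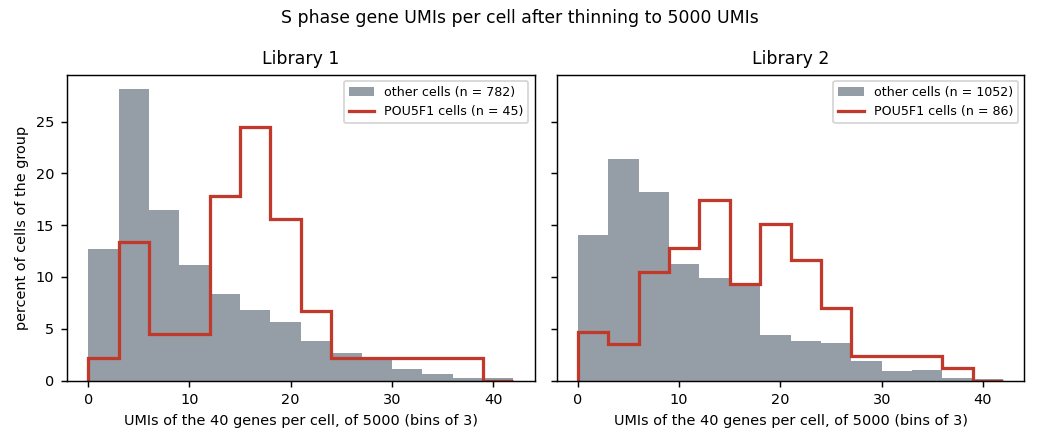
Share of cells, in percent of each group, by UMIs of the 40 genes per cell after thinning to 5000 UMIs, for POU5F1 cells and other cells of each library. The other cells pile up at low values (medians 7 and 8) with a long upper arm, and the POU5F1 cells are centred near 15 in both libraries.

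The POU5F1 group was itself uneven. POU5F1 cells with a TBXT UMI held a median of 18 and 17 S phase gene UMIs of 5000, and those without held 15 and 13. TBXT was sought before thinning, so this split depends on depth, whose part was not tested. The few POU5F1 cells with GATA3 at 200 CPM or more, 5 in each library at this depth, held a median of 5 and 7, near the other cells. Ordered by POU5F1 among cells with at least 10000 UMIs, the summed level of the 40 genes was 1923 and 2049 CPM in cells without a POU5F1 UMI. It was 2083 and 2115 in cells under 100 CPM, 2193 and 2047 from 100 to 200, 2655 and 2864 from 200 to 400, and 3517 and 3300 at 400 or more. Both classes above the cut were higher than the 3 below it in both libraries, though only 11 and 17 cells made up the class from 200 to 400. Close to the cut, among all kept cells, the libraries went opposite ways: the sum was 2306 and 1412 from 150 to 200 CPM of POU5F1 and 1205 and 1765 from 200 to 250, on 4 and 11 cells.

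Within single cells, S phase UMIs were set against those of the 54 G2/M genes. The 2 counts were weakly related over all cells (Pearson r 0.29 and 0.27, 827 and 1138 cells that share library and thinned depth), while the 40 genes tracked the 42 other replication genes more closely (r 0.75 and 0.71). A dense group of cells was low in both, with under 5 S phase UMIs and under 10 G2/M UMIs. It held 28.0% and 24.1% of other cells and 8.89% and 5.81% of POU5F1 cells. Cells with at least 10 of both were 31.8% and 35.4% of other cells and 73.3% and 75.6% of POU5F1 cells.

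**Figure D3:**
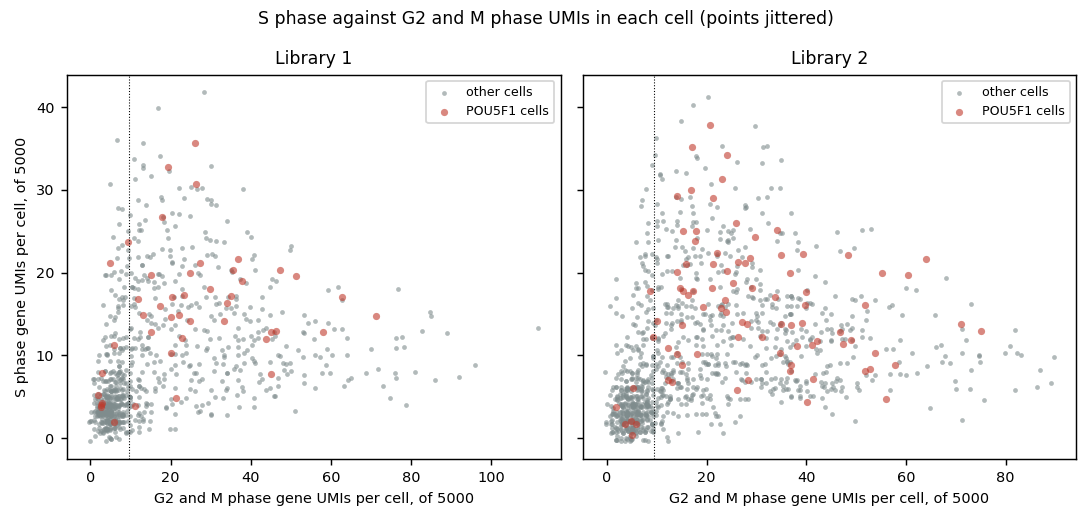
Each point is 1 cell after thinning to 5000 UMIs: UMIs of the 54 G2/M genes (horizontal, dotted line at the cut of 10) against UMIs of the 40 S phase genes (vertical), other cells in grey and POU5F1 cells in red. In both libraries the other cells form a dense cluster near the origin with an arm upward and an arm to the right, and few POU5F1 cells lie in that cluster.

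All 40 genes were higher in Q4, the cells with the largest G2/M share, than in Q1. Their sum from Q1 to Q4 was 674, 1476, 3072 and 2628 CPM in library 1 and 708, 2168, 3181 and 2440 in library 2. It was thus highest in Q3 and lower again in Q4, in both libraries. In edgeR's quasi-likelihood test of Q4 against Q1, 40 of 40 were called higher, where 19.4% of 17712 genes tested were (36.7% were called in either direction). The median log2 fold change was 2.25, against -0.01 over all genes tested. The median UMIs per cell rose from 31660 to 49239 in library 1 and from 29124 to 38266 in library 2 from Q1 to Q4, and its part in the result was not tested beyond thinning, under which 34 of 39 genes that could be tested were called higher, where 12.4% of 11636 genes were. POU5F1 cells were 6 of Q1 and 18 of Q4 in library 1, and 6 and 35 in library 2. Among cells under the POU5F1 cut alone, 40 of 40 were again higher, where 15.6% of 17226 genes were (30.6% were called in either direction), with a median of 2.29. Cell type markers moved between the same classes: in Q4, 5 of 6 streak markers (median log2 fold change 6.61) and 7 of 10 pluripotency markers were higher, and 9 of 12 trophectoderm or amnion and 3 of 4 mesenchyme markers were lower. Among cells under the cut, 3 of 6 streak and 5 of 8 tested pluripotency markers were higher, and 7 of 12 trophectoderm or amnion and 1 of 4 mesenchyme markers were lower. Their part in the result was not tested.

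The size of this difference varied from gene to gene. RRM2 had the largest, at 2.66 and 2.29 CPM in Q1 against 87.7 and 76.8 in Q4, a log2 fold change of 5.04 (SE 0.43, edgeR adjusted p = 3.21e-05). EXO1 (4.62), RAD51AP1 (4.45) and DSCC1 (4.14) followed. At the other end UNG had 0.59, CASP8AP2 0.62 and RPA2 0.74. RPA2 was at 25.2 and 19.1 in Q1 and 40.3 and 36.0 in Q4, and POLA1, with 0.78, at 92.1 and 88.9 against 176 and 147. These genes were thus well detected in cells with little G2/M signal, where RRM2 and EXO1 were nearly absent. By role, the median was 3.26 for licensing, 3.20 for nucleotide supply, 3.03 for repair, 1.79 for the helicase, 1.63 for chromatin and 1.54 for the fork. Of the list of 42 other replication genes 40 were higher in Q4, led by TICRR (5.72), MCM10 (4.72), TK1 (4.64) and CENPU (3.98). CENPU was counted on this list, though it encodes a centromere protein. Of 22 G1/S regulators 15 were higher, led by CCND1 (5.12), E2F7 (4.61), CDC25A (3.09) and FBXO5 (2.83), and CDK6 and MYC, named after their values were seen, were lower. Of 5 tested kinase inhibitors CDKN1B (1.34) and CDKN2D, the latter named after its value was seen, were higher and CDKN1C (-0.78) was lower. Of all genes tested between Q4 and Q1, 19.4% were called higher and 17.3% lower.

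The class with the highest level differed among the genes, in places by a small margin (PRIM1 in library 1 stood at 32.4 CPM in Q3 and 32.8 in Q4). In both libraries 30 of the 40 were highest in Q3, though UHRF1 in library 2 stood at 28.6 in both Q2 and Q3, and PRIM1, RAD51AP1 and USP1 were highest in Q4. The other 7, among them TYMS, GMNN, NASP and BRIP1, were highest in Q4 in library 1 and in Q3 in library 2. The share of all genes highest in each class was not computed, so these counts cannot be called particular to the 40. From Q3 to Q4 3 genes fell and 0 rose, where 0.271% of all genes were called lower and 0.672% higher (0.943% in all). UNG fell from 52.6 and 56.4 CPM to 26.6 and 29.1, a log2 fold change of -0.96 (SE 0.11, edgeR adjusted p = 0.00476). MCM6 fell from 77.2 and 65.8 to 38.9 and 36.2 (log2 fold change -0.92, adjusted p = 0.0244), and CDC6 from 46.8 and 48.9 to 28.2 and 28.4 (-0.75, adjusted p = 0.038). DTL, at -1.14, missed the threshold with an adjusted p of 0.0516. CCNE2 had the largest difference, from 14.4 and 8.85 to 2.85 and 2.21, with an adjusted p of 0.0704.

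**Figure D4:**
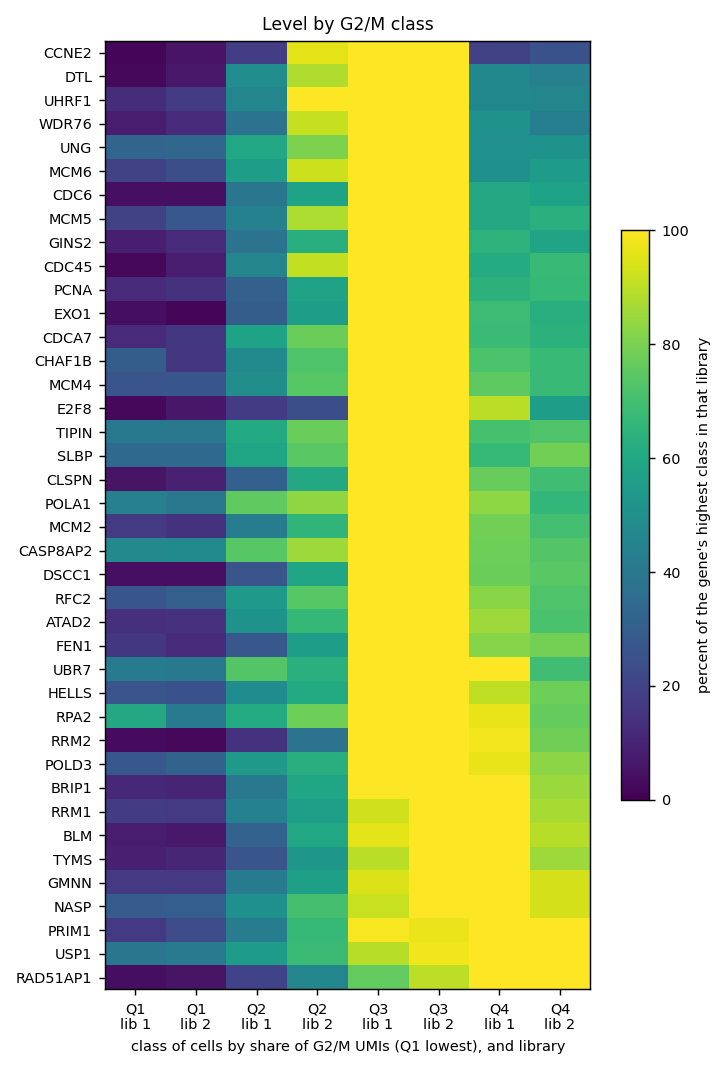
Level of each of the 40 genes in the 4 classes of cells ordered by G2/M share (Q1 lowest), in each library, as percent of the gene's highest class in that library. All 40 genes are lowest in Q1 in both libraries, 30 are highest in Q3 in both, and PRIM1, RAD51AP1 and USP1 are highest in Q4 in both. The shares of all genes with these orders were not computed.

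A further ordering of cells used the other replication genes, so that the 40 themselves set no class. Thinned cells were placed in 4 classes by the 42 other replication genes and the 54 G2/M genes, with a cut of 10 UMIs of 5000 on each, a cut chosen after the data were seen. The summed level of the 40 was 834 and 873 CPM in cells low in both, which were 323 and 388 cells. It was 2518 and 2994 in cells high only in replication genes (69 and 55 cells), 3223 and 3230 in cells high in both (275 and 460) and 1809 and 1750 in cells high only in G2/M genes (160 and 235). All 40 were lowest in cells low in both, in both libraries, and the share of all genes with this order was not computed. The 40 tracked the other replication genes that set these classes, so this order was partly built in. POU5F1 cells were high in both in 71.1% and 77.9% of cases, other cells in 31.1% and 37.4%.

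The balance between cells high only in replication genes and cells high only in G2/M genes separated the 40 further. The ratio was above 1 in both libraries for 32 genes and on different sides in the 2 libraries for 8. It was at least 2-fold in both for 9: DTL, WDR76, UHRF1, CDC45, CCNE2, CDCA7, MCM6, ATAD2 and UNG. The share of all genes with such ratios was not computed. The 40 tracked the other replication genes that set these classes (r 0.75 and 0.71), so ratios above 1 were partly built in. DTL was at 119 and 156 CPM in replication-only cells and 22.6 and 25.9 in G2/M-only cells, log2 ratios of 2.40 and 2.59. UHRF1 was at 43.6 and 47.1 against 10.5 and 12.7. At the other end, TYMS had log2 ratios of -0.56 and 0.29, RRM2 of -0.33 and 0.09, and RAD51AP1 of -0.43 and 0.25, and these stayed abundant in G2/M-only cells, TYMS at 78.5 and 63.2. No test was made here, because the classes were cut after the data were seen and the replication-only class was small.

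**Figure D5:**
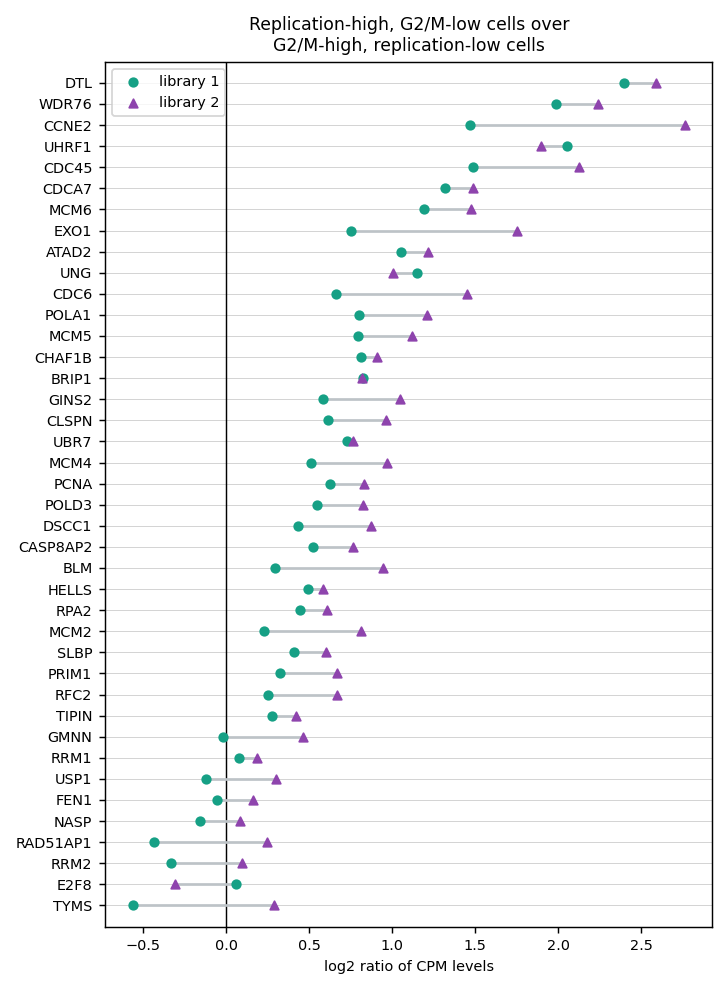
Log2 ratio of each gene's level (CPM) in cells high only in the other replication genes over cells high only in G2/M genes, library 1 as circles and library 2 as triangles, joined by a line. DTL, WDR76, CCNE2 and UHRF1 lie far to the right of 0 in both libraries, and the 8 genes whose libraries fall on both sides of 0 include TYMS, E2F8 and RRM2.

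The 40 genes also differed in the variance of their UMIs over cells. At 5000 UMIs a cell the variance over the mean, 1 for pure counting noise, exceeded 1.3 in both libraries for 10 genes: BRIP1 (2.09 and 1.88), POLA1 (1.99 and 1.87), DTL (1.83 and 2.00), NASP, RRM2, TYMS, HELLS, CDC6, PCNA and ATAD2. This measure depends on a gene's level. The 10% of cells highest in NASP held 32.8% and 31.3% of its UMIs, against 100% in both libraries for the rarer MCM2. The 10 genes are therefore not a ranking by uneven spread. Pairs of genes were weakly related (median Pearson r 0.08 and 0.09 over 780 pairs, in sparse counts). The highest was between POLA1 and BRIP1, at 0.34 and 0.33. Against the sum of the other 39, DTL had r of 0.49 and 0.41, HELLS 0.43 and 0.42, and ATAD2 0.36 and 0.42. These values describe cells of 1 library each and carry no test.

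POLA1 and BRIP1, the 2 genes whose POU5F1 values were both below those of other cells, are long. POLA1 spans 303 kb and BRIP1 184 kb, against 24.0 kb for MCM2 and 4.33 kb for FEN1. Over the 40 genes, the log2 fold change went down with log10 gene length (Pearson r -0.54, Spearman rho -0.39, n = 40 genes that share libraries), and without POLA1 and BRIP1 the values were -0.36 and -0.29. Fold changes within library 1 and library 2 were closely related (r 0.91), on the same total-UMI scale. The part of gene length in these differences was not tested.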

How the data were processed

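Per the labels' protocols, cells of 2 day 4 blastoid samples were run on the Chromium 3′ kit. The authors deposited raw UMI counts per gene and barcode. Cell Ranger 9.0.0 and GRCh38 are named in the submitters' processing notes, and filters are not given in the sources used here, though every barcode in the tables has at least 200 genes. The 40 genes, the other lists and the comparisons were chosen with earlier results of these data known.

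UMIs were summed per library and group of cells and tested with edgeR 4.0.16 (quasi-likelihood, TMM, filterByExpr; adjusted over all genes tested by Benjamini-Hochberg, threshold 0.05; library as a block); the 4 sums of the POU5F1 contrast leave 1 residual degree of freedom, and the spread is moderated across genes. Within-library ratios use total UMIs and so sit slightly above TMM estimates. DESeq2 1.42.0 was an alternative. Doublets were sought with scrublet in scanpy 1.11.5, which marked 4 and 3 kept cells and so cannot be relied on; they were kept. Thinning drew UMIs without replacement. The library block is by construction, as both groups of cells come from the same library. Scripts were tested on simulated data: 4 of 18843 genes in the POU5F1 design and 8 of 17557 in the G2/M class design were false calls.

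All 40 genes were named; of each other list, up to 4 genes with the largest change at 10 CPM or more were named, beside those said to be named after their values were seen. Gene positions are from RefSeq on GRCh38, where all 40 matched; 18 overlap another annotated gene.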

Additional observations from a re-analysis of the deposited data

Results flagged for a closer look

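The 40 genes were also counted in the barcodes left out of every comparison, where molecules above the limit that a count of 0 allows were found. Barcodes under 1000 detected genes held 1723 CPM of the S phase genes in library 1 (1020 UMIs, limit 5.07) and 1919 in library 2 (1324 UMIs, limit 4.35). Barcodes over 20% mitochondrial UMIs held 1431 in library 1 (867 UMIs, limit 4.95) and 1571 in library 2 (889 UMIs, limit 5.30). All 4 values are below the 2040 and 2089 of kept cells under the POU5F1 cut. The limits cover counting error only.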

How the results depend on the processing

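In the POU5F1 contrast, 14 of the 30 higher genes were called in all 16 tested settings: TYMS, FEN1, DTL, RFC2, MCM6, MCM5, GINS2, GMNN, MCM4, UNG, CLSPN, NASP, HELLS and DSCC1. The share of all genes called in every setting was not computed. The count of higher genes was 16 with thinned cells, where 13.3% of 12771 genes were, and 19 with the G2/M class as a term, where 24.4% of 14072 were. Under DESeq2's Wald test it was 23, where 14.3% of all genes were called higher. The higher genes that DESeq2 did not call were CDC45, TIPIN, RAD51AP1, USP1, CHAF1B, UHRF1 and E2F8. The count of lower genes was 0 under DESeq2's Wald test and with thinned cells, 2 with the POU5F1 cut at 100 CPM and 3 with the G2/M class term. All genes called were 5165 under DESeq2, 3453 with thinned cells and 5448 without TBXT cells, against 9170. The median log2 fold change of the 40 was 0.64 with DESeq2 size factors, 0.54 with no filter on low counts, 0.71 with thinned cells, 0.63 with doublets removed, 0.48 and 0.64 with the cut at 100 and 400 CPM, 0.69 without GATA3 cells, 0.64 with no mitochondrial limit, 0.35 with the G2/M class term, 0.64 without cells on 1 or 2 POU5F1 UMIs and 0.57 without TBXT cells. Without the library block it was 0.64, and 31 genes were higher, where 24.8% of 19076 were, and 1 was lower. With 1 library alone it was 0.69 either way, with no test, since no residual degree of freedom is left. The last 2 cell exclusions, the cells under the cut taken alone and the comparison of Q3 and Q4 were chosen after the data were seen.

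Uncalled genes changed sign: EXO1 to -0.89 with thinned cells and -0.072 with the G2/M class term; WDR76 to -0.043 with no filter, -0.51 with thinned cells, -0.19 with the G2/M class term and -0.021 without TBXT cells; UBR7 to -0.025 with the cut at 100, -0.039 with the G2/M class term and -0.043 without TBXT cells. ATAD2 became 0.0014 with the cut at 400 and 0.015 without GATA3 cells, CASP8AP2 0.011 without GATA3 cells and 0.077 without TBXT cells, and CCNE2 -0.24 without TBXT cells. In the G2/M contrast all genes called were 3844 under DESeq2 and 2816 with thinned cells, against 6497. The median of the 40 was 1.99 with 3 classes in place of 4 and from 2.16 to 2.44 with 1 library alone. The median POU5F1 cell, scaled to 5000 UMIs and averaged over libraries, held 13.75 UMIs of the 40 genes when thinned to 2000, 16.125 when thinned to 10000, 12.5 with the cut at 100 and 16.5 with the cut at 400, against 15.25. With 1 library alone it held 15 to 15.5, and the median other cell 7 to 8. The cause of these changes was not tested. Promoter motifs were not analysed here. Depth limits the rarer genes: 10 of the 40 had fewer than 1000 UMIs in each library.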
